A study of Mus musculus with 2 samples.

Results

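In all, 5 genes linked to blood capillaries and vessel growth were followed through the cells of mouse mandibular lymph nodes: the apelin receptor gene Aplnr, the gene of its ligand Apln, and Esm1, Tmem252 and Rgcc. The 5 genes, of 27998 features in the count tables, were given by symbol. They were selected on their UMI values in these same libraries, after subarachnoid haemorrhage (SAH) against a sham operation. Their differences between the libraries are therefore a description, and nothing is inferred from the fact that they differ. In SAH blood enters the space that surrounds the brain, here by infusion of the animal's own blood. Droplet single-cell RNA sequencing was carried out 24 h after SAH or a sham operation, with the nodes of 20 mice pooled in each group. Cells bearing CD45 had been removed, and cells bound by antibodies to CD31 or podoplanin were captured on beads. Each group is 1 library, so differences between groups could not be tested against replicates, and all comparisons are between the libraries rather than the conditions. The strain, age and sex of the mice are not given in the sources used here.

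Apelin is a secreted peptide that acts on the apelin receptor, a G protein-coupled receptor of endothelial cells. In growing vessels the tip cells at the front of a sprout are known to release apelin, and the stalk cells behind them to carry the receptor. Esm1 encodes endocan, a secreted proteoglycan that marks tip cells. Rgcc encodes a regulator of the cell cycle, the response gene to complement 32. Tmem252 encodes a transmembrane protein.

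The labels call the sorted cells lymphatic endothelial cells, yet cells with blood endothelial RNA made up most of each library. Cells were taken as blood endothelial (the BEC gate) where they held 0 UMIs of Prox1, a transcription factor of lymphatic endothelium, at least 1 UMI of Pecam1 and at least 1 UMI of Ly6c1 or Flt1. A UMI marks 1 captured RNA molecule. Of the barcodes kept, 6329 of 11157 in sham (56.7%) and 6480 of 11454 in SAH (56.6%) were in this gate. Cells with at least 1 Prox1 UMI formed the lymphatic (LEC) gate of 2364 sham and 2562 SAH cells. BEC cells with a UMI of exactly 1 of 5 marker groups formed subsets. The groups were Col13a1, a transmembrane collagen (1332 sham and 1102 SAH cells), Kit, a receptor tyrosine kinase (705 and 499), Aqp7, a channel for water and glycerol (114 and 172), Gja5 or Sema3g, arterial genes (573 and 694), and Fut7 or Chst4, enzymes of high endothelial venules (381 and 530). BEC cells with several groups (1612 and 1747) or with none (1612 and 1736) were classes of their own. Levels are in CPM, the UMIs of a gene scaled to the UMIs of all genes and cells of a gate, ratios are SAH over sham, and bracketed ranges are exact 95% intervals that cover counting error only. The levels of different genes are not compared.

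The genes lie on 5 chromosomes of GRCm38 (mm10) and all are protein-coding. Aplnr (ENSMUSG00000044338) is at chr2:85136225-85139923 on the plus strand, and Apln (ENSMUSG00000037010) is at chrX:48025146-48034853 on the minus strand. Esm1 (ENSMUSG00000042379), at chr13:113209659-113218098 on the plus strand, overlaps Gzmk on the minus strand. Whether counting used the strand is not given in the sources used here, so the Esm1 counts are uncertain in that respect. Tmem252 (ENSMUSG00000048572) is at chr19:24674008-24682233 on the plus strand and Rgcc (ENSMUSG00000022018) at chr14:79288756-79301645 on the minus strand.

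The set of RefSeq promoters used here (GRCm38.p6) held 4 of the 5 genes and had no entry for Aplnr. The 250 bases before the start are shown for Apln and Tmem252, whose levels differed most between the libraries among these 4, and for Rgcc, whose level differed less. Capitals mark the core motif of ETS factors, a family that includes regulators of endothelial genes, written GGAA or, on the other strand, TTCC. The Apln promoter spans chrX:48034854-48035103 (minus strand), that of Tmem252 chr19:24673758-24674007 (plus strand) and that of Rgcc chr14:79301636-79301885 (minus strand).
Apln: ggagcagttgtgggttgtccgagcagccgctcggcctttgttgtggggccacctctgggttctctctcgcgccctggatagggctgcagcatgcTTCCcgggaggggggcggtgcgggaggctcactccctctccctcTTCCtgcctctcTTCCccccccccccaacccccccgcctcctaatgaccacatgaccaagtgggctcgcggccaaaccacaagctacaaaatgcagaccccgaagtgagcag
Tmem252: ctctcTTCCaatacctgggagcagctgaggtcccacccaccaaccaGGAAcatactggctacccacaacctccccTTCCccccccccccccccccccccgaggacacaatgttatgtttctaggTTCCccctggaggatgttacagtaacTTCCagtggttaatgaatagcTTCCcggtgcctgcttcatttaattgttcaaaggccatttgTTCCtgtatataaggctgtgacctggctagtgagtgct
Rgcc: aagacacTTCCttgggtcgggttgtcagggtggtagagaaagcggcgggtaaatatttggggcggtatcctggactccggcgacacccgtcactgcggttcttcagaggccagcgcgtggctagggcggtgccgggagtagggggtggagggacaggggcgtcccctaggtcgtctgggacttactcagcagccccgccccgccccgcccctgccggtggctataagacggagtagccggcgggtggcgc
The ETS core matched 3 times in Apln, 7 times in Tmem252, 1 time in Rgcc and 3 times in the Esm1 promoter, which is not shown. Of 32851 promoters of this set, 93.4% hold at least 1 such match, so its presence sets none of these genes apart. The KLF core CACCC matched 4 times in Rgcc and 1 time in Tmem252, and 52.0% of promoters hold it. The motifs ACGTG (HIF core, in 16.6% of promoters), TGANTCA (AP-1, 6.75%), GTGGGAA (RBPJ, 5.42%) and TATAAA (a core promoter box, 12.4%), and the interferon response (2.98%) and MEF2 (3.20%) motifs, had 0 matches in the 4 windows. Both strands were searched, GTGGGAA contains GGAA, and a match or its absence describes only these letters.

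The libraries held 13952 and 13766 barcodes with 72860197 and 78497486 UMIs in sham and SAH. The median kept cell had 5039 UMIs in sham and 5747 in SAH, and the median BEC cell 4602 and 4754 UMIs, with a median mitochondrial share of 4.72% and 3.86%. 76 barcode sequences occurred in both libraries, 49 of them kept in both. RNA of other cells was present in the BEC gate. The summed level of 8 fibroblast markers was 1214 CPM in sham and 2205 in SAH, of 7 mural markers 240.1 and 309, and of 5 salivary or epithelial markers 195 and 878. The B cell, T or NK cell and myeloid lists were each between 4.02 and 36.5 CPM. All markers of these lists that the tables hold had a UMI, except Prox1, at 0 by the gate. Of the lymphatic list, Lyve1 was at 31.7 and 41.6 CPM, Mmrn1 at 15.4 and 26.8 and Pdpn at 4.52 and 9.67, against 572 and 987, 754 and 939.6, and 78.5 and 87.0 in the LEC gate. The chemokine gene Ccl21a was higher in the BEC gate, at 3012 and 5299.5 CPM, than in the LEC gate, at 941 and 1657, and the lymphatic list summed to 11309 and 14246 CPM in the Fut7/Chst4 subset. The BEC gate's own 8 markers summed to 8953 and 9746 CPM, but not all moved alike, with Cdh5 at 898 and 631, Esam at 790.4 and 538 and the gate gene Ly6c1 at 2328 and 2937 CPM. The part of the other cells' RNA in the differences below was not tested.

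In the BEC gate, all 5 genes were lower in the SAH library. Aplnr was at 233 CPM in sham (8506 UMIs) and 83.0 CPM in SAH (3074 UMIs), a ratio of 0.356 [0.342, 0.371]. Apln, its ligand, was scarcely captured, at 13.9 CPM (506 UMIs) and 3.91 CPM (145 UMIs), a ratio of 0.283 [0.233, 0.340]. Receptor and ligand were thus 2.81-fold and 3.54-fold lower in SAH. Tmem252 was at 489.5 CPM (17877 UMIs) in sham and 200.5 CPM (7425 UMIs) in SAH, a ratio of 0.410 [0.399, 0.421]. The other genes differed less. Esm1 was at 159 CPM (5818 UMIs) and 116 CPM (4282 UMIs), a ratio of 0.726 [0.697, 0.755]. Rgcc was at 948 CPM (34629 UMIs) and 721 CPM (26701 UMIs), a ratio of 0.760 [0.748, 0.773].

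Of all 12858 genes with at least 50 UMIs in the BEC gate, 4.50% were at least 1.5-fold lower and 10.5% at least 1.5-fold higher in SAH, with a median log2 ratio of 0.03. Aplnr, Apln and Tmem252 were past that fold on the lower side, none of the 5 was past it on the higher side, and their median log2 ratio was -1.29. Because the genes were picked with this contrast known, nothing is read from that count.

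**Figure D1:**
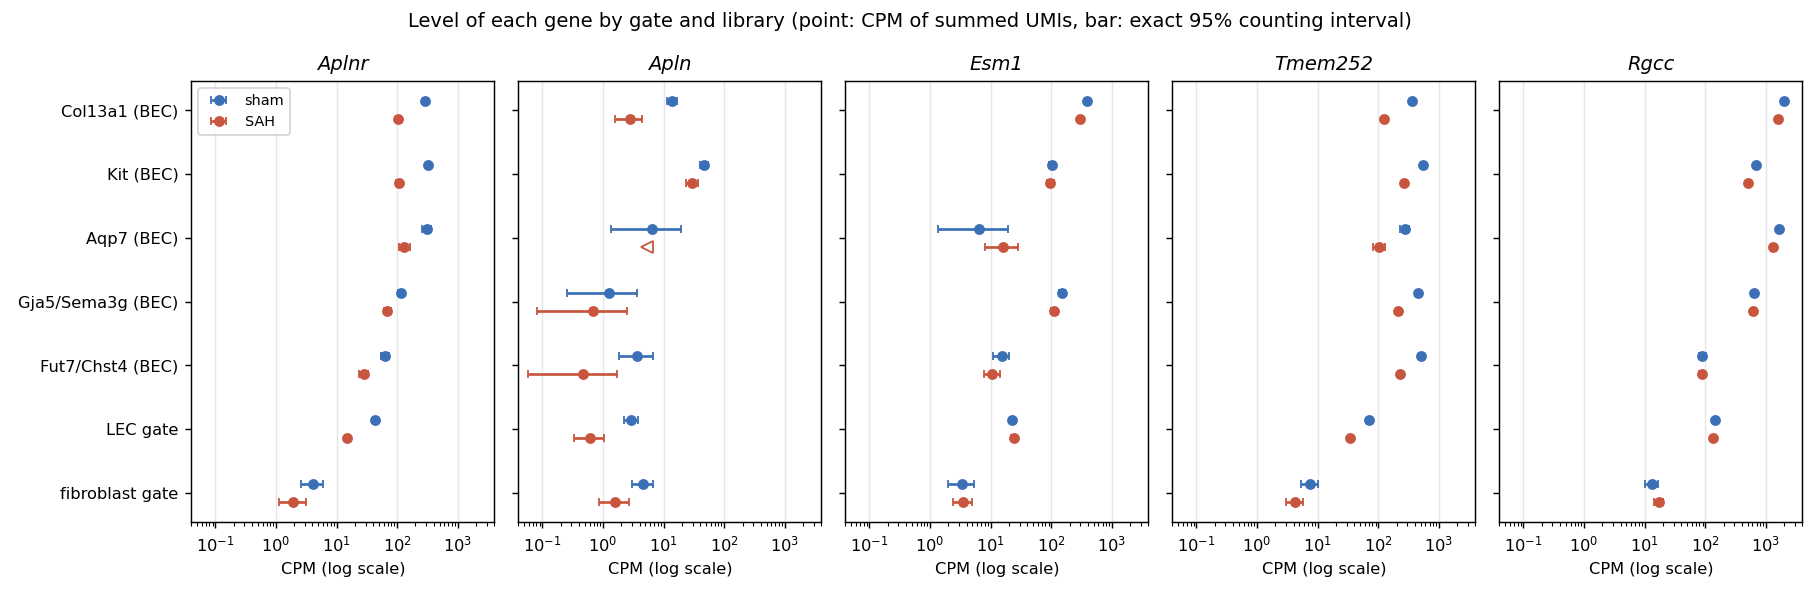
Level of each gene in CPM (log scale) by gate, sham in blue and SAH in red, with exact 95% counting intervals. Apln in the Aqp7 subset of SAH had 0 UMIs and is drawn as an open triangle at the upper limit of its interval, 5.35 CPM. Aplnr and Tmem252 lie to the left in SAH in every gate drawn, while the Rgcc points of the Gja5/Sema3g and Fut7/Chst4 subsets lie close together.

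The receptor gene was found in all 5 subsets. Aplnr levels in sham were 327 CPM in the Kit subset, 308 in Aqp7 and 287 in Col13a1. These were followed by 117 in Gja5/Sema3g, 63.6 in Fut7/Chst4 and 43.2 in the LEC gate. The Kit interval [309.8, 346] lay above that of Col13a1 [274, 299.7], the Aqp7 interval [259, 362] overlapped both, and each later step lay outside the intervals. In SAH the levels were 106 CPM in Kit, 130.4 in Aqp7, 102 in Col13a1, 69.0 in Gja5/Sema3g, 27.8 in Fut7/Chst4 and 15.0 in the LEC gate. The same 3 subsets were highest, and there their intervals all overlapped. The ratio was 0.324 [0.284, 0.368] in Kit, 0.354 [0.323, 0.389] in Col13a1, 0.424 [0.322, 0.556] in Aqp7 and 0.437 [0.344, 0.553] in Fut7/Chst4. In the arterial Gja5/Sema3g subset it was 0.592 [0.491, 0.711], and its interval lay above those of Kit and Col13a1. With at least 2 UMIs of Gja5 or Sema3g required, however, the log2 ratio there was -0.01 in place of -0.76, and in cells with a UMI of these markers, whether or not of others, it was -1.19. The size of the arterial difference therefore depended on how the subset was drawn.

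The ligand gene was concentrated in the Kit subset. In sham, Apln was at 46.3 CPM in Kit (181 UMIs) against 13.9 CPM in Col13a1 (96 UMIs). In Aqp7 it was at 6.50 CPM (3 UMIs), in Fut7/Chst4 at 3.70 CPM (11 UMIs) and in Gja5/Sema3g at 1.25 CPM (3 UMIs). Kit cells held 35.8% of the gate's Apln UMIs in sham and 55.9% in SAH, against 10.7% and 7.36% of all its UMIs. In SAH, Apln was at 29.7 CPM in Kit (81 UMIs), 2.75 CPM in Col13a1 (16 UMIs), 0.680 CPM in Gja5/Sema3g (2 UMIs), 0.472 CPM in Fut7/Chst4 (2 UMIs) and 0 in Aqp7, where counting error allows up to 5.35 CPM. Only Kit stood apart from the next subset in both libraries. The ratio in Kit was 0.642 [0.488, 0.839], above the 0.198 [0.109, 0.338] of Col13a1, and these intervals did not overlap. For Aqp7 and Gja5/Sema3g no ratio is given, since both libraries had 3 UMIs or fewer, and in Fut7/Chst4 it was 0.127 [0.0137, 0.583].

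Few cells carried this Apln. The 10 cells with most Apln held 45.3% of the Kit subset's UMIs in sham and 74.1% in SAH, and a single SAH cell held 22 of the 81. Without those 10 cells in each library the log2 ratio in Kit was -1.71 in place of -0.64, and after thinning to equal depth it was -0.21. In Col13a1 it ranged from -4.19 after thinning to -1.10 without cells that held a UMI of Smr3a, Bpifa2 or Epcam, in place of -2.34. The contrast between Kit and Col13a1 thus rested on a small number of cells.

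**Figure D2:**
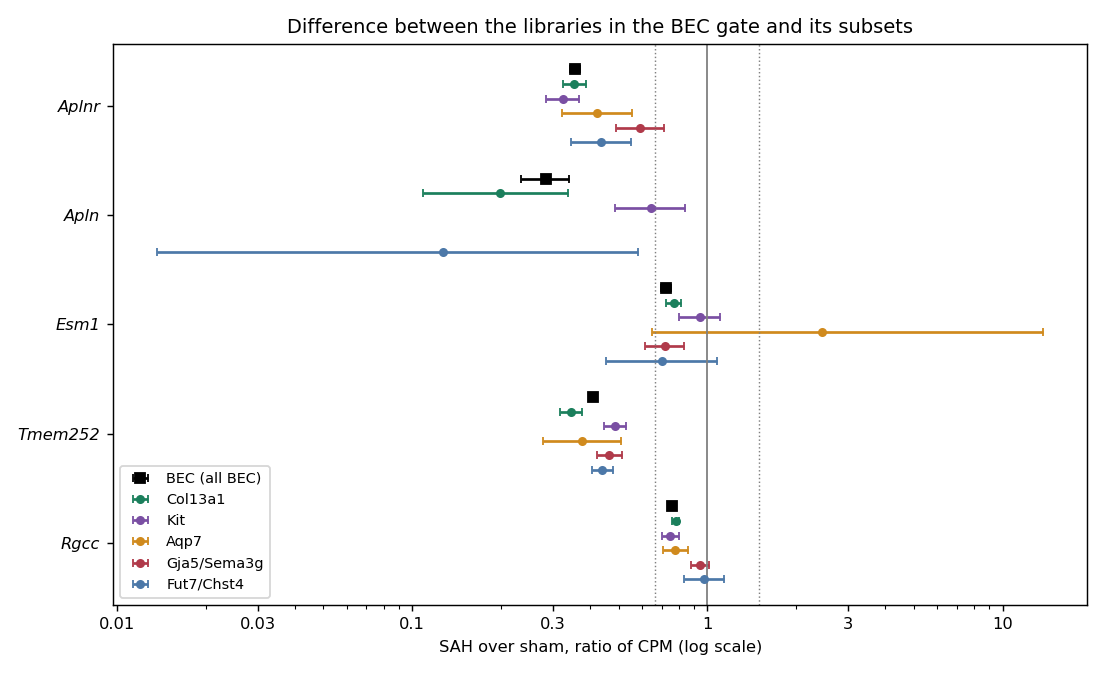
Ratio of SAH to sham CPM (log scale) for each gene in the BEC gate (black squares) and its 5 subsets (coloured points), with exact 95% counting intervals and dotted lines at a fold of 1.5 either way. Apln is not drawn in Aqp7 and Gja5/Sema3g, where both libraries had 3 UMIs or fewer. All Aplnr and Tmem252 points lie below the lower dotted line, and the Rgcc points of Gja5/Sema3g and Fut7/Chst4 lie near 1.

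Esm1 was highest in the Col13a1 subset, at 389 CPM in sham and 299 CPM in SAH. This subset held 46.3% of the gate's Esm1 UMIs in sham and 40.7% in SAH, against 19.0% and 15.7% of all UMIs. Next were Gja5/Sema3g at 152 CPM in sham and 109 in SAH, and Kit at 103 and 96.8 CPM, which were apart in sham and not in SAH. Fut7/Chst4 cells had 15.1 and 10.6 CPM from 45 UMIs in each library, and Aqp7 cells had 3 UMIs in sham and 11 in SAH. Esm1 and Apln, both tip cell genes by background, thus had their highest levels in different subsets. The Esm1 ratio was 0.768 [0.723, 0.816] in Col13a1 and 0.717 [0.615, 0.835] in Gja5/Sema3g. In Kit it was 0.940 [0.802, 1.10], an interval that includes no difference. The ratios in Fut7/Chst4, 0.700 [0.453, 1.08], and in Aqp7, 2.45 [0.648, 13.7], give no direction at this depth. The Aqp7 value, with a log2 ratio of 1.29, was -0.59 when cells with markers of other subsets were let in. That in Fut7/Chst4 was 1.00 in place of -0.51 without the 10 cells with most Esm1, and that in Gja5/Sema3g was -1.09 in place of -0.48 with at least 2 marker UMIs.

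Tmem252 did not follow the capillary subsets. Its sham levels were 545 CPM in Kit, 507 in Fut7/Chst4, 450.5 in Gja5/Sema3g, 356 in Col13a1 and 273 in Aqp7, with Kit and Fut7/Chst4 not separable. In SAH it was at 266 CPM in Kit, 224 in Fut7/Chst4, 209.7 in Gja5/Sema3g, 123 in Col13a1 and 103 in Aqp7. The cells with genes of high endothelial venules, the vessels through which lymphocytes enter the node, therefore had more Tmem252 than the Col13a1 cells in both libraries. Its levels were thus not particular to capillary cells. BEC cells with several marker groups were at 599 CPM in sham and 248 CPM in SAH. The ratio was 0.345 [0.317, 0.375] in Col13a1 and 0.377 [0.278, 0.508] in Aqp7. It was 0.441 [0.406, 0.479] in Fut7/Chst4, 0.465 [0.421, 0.514] in Gja5/Sema3g and 0.488 [0.448, 0.531] in Kit. The intervals of Col13a1 and of the last 3 did not overlap. In Aqp7 the log2 ratio moved from -1.41 to -0.75 after thinning and to -0.72 with at least 2 Aqp7 UMIs.

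Rgcc was highest in the Col13a1 and Aqp7 subsets. In sham it was at 1992 CPM in Col13a1, 1668 in Aqp7, 674 in Kit, 646 in Gja5/Sema3g and 89.5 in Fut7/Chst4. In SAH it was at 1557, 1299, 504, 608 and 87.2 CPM in the same subsets. Kit and Gja5/Sema3g were not separable in sham, and in SAH Kit was the lower of them. Fut7/Chst4 was at the bottom of the order, below the LEC gate, in both libraries. The ratio was 0.782 [0.761, 0.803] in Col13a1, 0.779 [0.706, 0.859] in Aqp7 and 0.748 [0.700, 0.799] in Kit. In Gja5/Sema3g, 0.942 [0.879, 1.01], and in Fut7/Chst4, 0.974 [0.830, 1.14], no difference was detectable at this depth.

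Genes past 1.5-fold among the 5 are set against all genes of each subset. In Col13a1, 3 of 5 were at least 1.5-fold lower, where 4.47% of genes with 50 UMIs were. In Kit it was 3 of 5, against 5.76%. In Aqp7 it was 2 of the 3 with enough UMIs, against 7.01%, in Gja5/Sema3g 2 of 4 against 5.27%, and in Fut7/Chst4 2 of 4 against 5.55%. Apln was left out in the last 3 subsets and Esm1 in Aqp7. None of the 5 with enough UMIs was past 1.5-fold on the higher side in any subset. The share of all genes on that side was not taken per subset, so nothing is read from this. The subsets are parts of the BEC gate and carry no independent weight. Their makeup also differed, since Col13a1 cells were 21.0% of the BEC gate in sham and 17.0% in SAH, and Kit cells 11.1% and 7.70%. With the subsets weighted alike in both libraries, the BEC gate's log2 ratio of Esm1 was -0.35 in place of -0.46 and that of Rgcc -0.32 in place of -0.40.

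The difference was present in the share of cells with a UMI as well as in the UMIs per cell. All shares that follow come from cells thinned to 2000 UMIs each, which left out 552 sham and 626 SAH cells of the BEC gate. For these shares the gates were read before thinning. Aplnr was detected in 29.5% [28.4, 30.7] of sham and 14.6% [13.7, 15.5] of SAH cells (46.4% and 27.1% before thinning). Tmem252 was detected in 44.3% [43.0, 45.6] and 25.6% [24.5, 26.7] (60.0% and 43.3% before). Cells with 4 or more UMIs were rarer still in SAH for both genes. For Aplnr they were 1.26% [0.992, 1.59] of sham and 0.102% [0.0376, 0.223] of SAH cells. For Tmem252 they were 5.49% [4.91, 6.11] and 1.08% [0.828, 1.37].

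For the other genes the shares lay closer. Rgcc was detected in 59.4% [58.1, 60.6] of sham and 52.7% [51.4, 54.0] of SAH cells (70.2% and 64.8% before thinning). Esm1 was detected in 17.6% [16.6, 18.6] and 14.4% [13.5, 15.3] (26.0% and 20.8% before). Apln was detected in 1.49% [1.19, 1.84] and 0.564% [0.388, 0.791] (3.32% and 1.00% before). Fibroblast-gate cells, with a Pdgfra UMI and none of Prox1 or Pecam1, were taken as a comparator outside the endothelium and had median depths of 4990.5 and 6734.5 UMIs. In them the thinned shares were 1.30% and 0.489% for Aplnr, 1.20% and 0.815% for Tmem252, 2.09% and 3.18% for Rgcc and 0.698% and 0.489% for Esm1, far below the BEC gate. For Apln they were 0.897% [0.411, 1.70] and 0.326% [0.0889, 0.833], and these intervals overlapped those of the BEC gate. The Apln share over the whole BEC gate was thus not separable from that of the fibroblast gate, although its level in CPM was (13.9 against 4.58 in sham, 3.91 against 1.59 in SAH). In LEC-gate cells with 0 UMIs of Ly6c1 and Flt1 the Apln share was below the BEC gate, at 0.478% [0.192, 0.983] in sham and 0% [0, 0.355] in SAH. Whether fibroblast-gate cells carry Apln RNA of their own was not tested, so their share may not be a background for this gene. In the Kit subset the Apln share was 5.02% [3.50, 6.95] in sham and 3.88% [2.32, 6.06] in SAH, above the fibroblast gate. A leukocyte gate, cells with a Ptprc UMI and none of Prox1, Pecam1 or Pdgfra, was small, at 84 sham and 56 SAH cells after thinning. Rgcc was detected in 19.0% [11.3, 29.1] and 12.5% [5.18, 24.1] of them, overlapping the 11.7% [8.59, 15.4] and 10.9% [8.29, 13.9] of Fut7/Chst4. Aplnr was at 2.38% and 1.79%, Tmem252 at 5.95% and 0%, Esm1 at 0% and 1.79% and Apln at 0% in both. The source of this Rgcc was not tested.

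**Figure D3:**
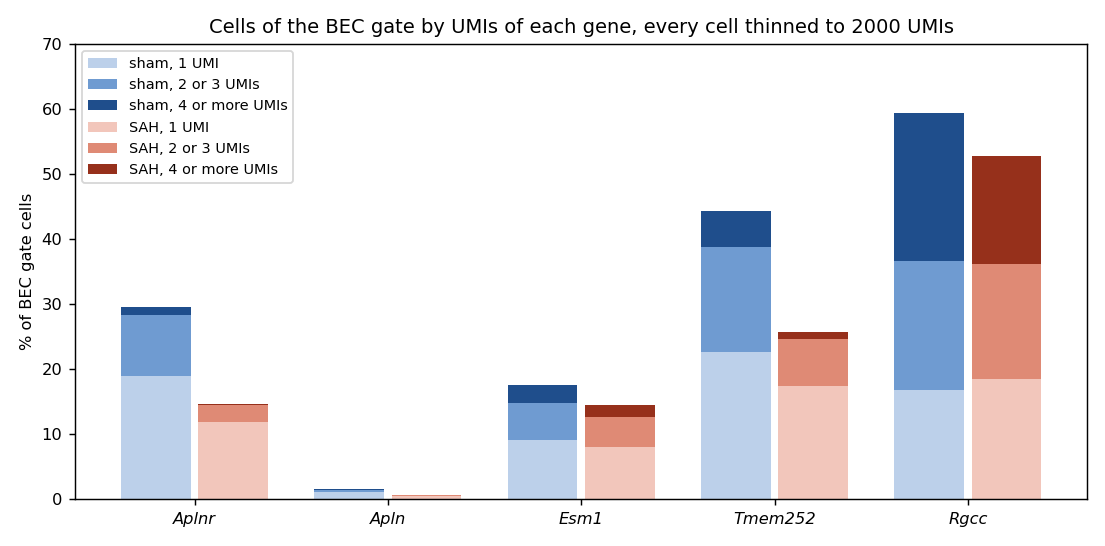
Share of BEC gate cells (%) with 1, with 2 or 3, and with 4 or more UMIs of each gene after thinning every cell to 2000 UMIs, for 5777 sham cells (blue) and 5854 SAH cells (red). The Aplnr bars reach 29.5% in sham and 14.6% in SAH, and the darkest piece, 4 or more UMIs, is hardly visible for Aplnr in SAH.

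Over the whole BEC gate, which mixes the subsets, Aplnr and Esm1 had a UMI more often in cells with Rgcc than in cells without. Aplnr had a UMI in 35.9% [34.3, 37.6] of sham cells with Rgcc and 20.2% [18.6, 21.9] of those without, and in 18.5% [17.2, 20.0] and 10.1% [9.01, 11.3] of SAH cells. Esm1 had one in 24.4% [23.0, 25.9] of sham cells with Rgcc and 7.58% [6.54, 8.73] of those without, and in 21.1% [19.6, 22.6] and 6.93% [6.01, 7.94] of SAH cells. Within subsets this did not hold for Aplnr throughout. In Col13a1 cells Aplnr had a UMI in 34.5% [31.6, 37.4] of sham cells with Rgcc and 31.6% [24.4, 39.6] without, and in 15.7% [13.3, 18.3] and 16.7% [12.0, 22.5] of SAH cells. In Kit cells it had one in 48.8% [43.6, 54.0] and 35.5% [30.2, 41.1] in sham, and in 21.2% [16.1, 27.2] and 15.1% [10.8, 20.3] in SAH, which overlap. For Esm1 the Col13a1 shares with and without Rgcc were 34.9% [32.1, 37.9] and 23.2% [16.8, 30.7] in sham and 32.2% [29.0, 35.5] and 13.9% [9.49, 19.3] in SAH, apart in both. Over the whole gate again, Tmem252 had a UMI in 36.7% [33.7, 39.7] of sham cells with Esm1 against 45.9% [44.5, 47.3] without, and in 20.1% [17.4, 22.9] against 26.5% [25.3, 27.8] in SAH. Ligand and receptor showed no separable pattern. Aplnr had a UMI in 38.4% [28.1, 49.5] of the 86 sham cells with Apln against 29.4% [28.2, 30.6] without, and in 15.2% [5.11, 31.9] of the 33 such SAH cells against 14.6% [13.7, 15.5]. Within the Col13a1 subset alone, where Esm1 was highest, Aplnr had a UMI in 24.9% [20.8, 29.4] of sham cells with Esm1 against 38.7% [35.4, 42.2] without, and in 11.6% [8.14, 15.8] against 17.6% [14.9, 20.6] of SAH cells, where the intervals overlap. In Kit cells the shares were 50.6% [39.6, 61.5] and 41.5% [37.5, 45.6] in sham, and 18.6% [9.69, 30.9] and 18.0% [14.4, 22.1] in SAH, which overlap in both libraries. Cells of 1 library are not replicates, and these shares describe the libraries.

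The mitochondrial share was lower in SAH, with close depths in the BEC gate, and the ratios were also taken within strata of BEC cells by depth and by mitochondrial share. In cells under 3000 UMIs, from 3000 to 6000 and above, the Aplnr ratio was 0.397, 0.409 and 0.324, and the Tmem252 ratio was 0.558, 0.473 and 0.373. With under 3%, 3 to 5% and 5 to 10% mitochondrial UMIs, Aplnr was at 0.451, 0.377 and 0.307, and Tmem252 at 0.475, 0.452 and 0.376. Both genes were lower in SAH in every stratum. For Esm1 the mitochondrial strata gave 0.763, 0.537 and 0.617, and for Rgcc 0.780, 0.628 and 0.585, so that both ratios were under the pooled value in the upper strata. For Apln they gave 0.355, 0.298 and 0.215. RNA of salivary genes was unevenly spread. Of BEC cells, 53.1% in sham and 41.6% in SAH held a UMI of Smr3a, Bpifa2 or Epcam. Without these cells the BEC ratios were 0.366 for Aplnr, 0.359 for Apln, 0.395 for Tmem252, 0.802 for Esm1 and 0.792 for Rgcc. The Fut7/Chst4 subset had most of the salivary list's SAH excess, at 139 CPM in sham and 5356 CPM in SAH.

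In the LEC gate the 5 genes were at lower levels. Aplnr was at 43.2 CPM in sham (803 UMIs) and 15.0 CPM in SAH (341 UMIs), a ratio of 0.347 [0.305, 0.395]. Tmem252 was at 71.1 and 34.3 CPM, a ratio of 0.482 [0.441, 0.527], and Apln at 2.91 and 0.616 CPM from 54 and 14 UMIs, a ratio of 0.212 [0.109, 0.387]. Esm1 at 22.8 and 23.9 CPM, 1.05 [0.924, 1.20], and Rgcc at 146 and 134 CPM, 0.922 [0.875, 0.971], were close to level. Of 12317 genes with at least 50 UMIs there, 5.03% were at least 1.5-fold lower and 7.89% at least 1.5-fold higher, with a median log2 ratio of 0.00. Aplnr, Apln and Tmem252 were again past 1.5-fold on the lower side, and the median of the 5 was -1.05. The Apln log2 ratio was -2.24, and lay between -3.51 without cells holding salivary RNA and -0.75 with at least 2 Prox1 UMIs and a Pecam1 UMI.

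Most of this signal came from LEC-gate cells that also held a blood endothelial UMI. The 870 sham and 1489 SAH cells with a UMI of Ly6c1 or Flt1 carried 772 of the 803 Aplnr UMIs in sham and 331 of the 341 in SAH. Their Aplnr level was 99.9 CPM in sham and 23.1 in SAH, against 2.86 and 1.20 CPM in the 1494 and 1073 LEC cells with neither gene. The latter levels were near those of the fibroblast gate, 4.05 and 1.93 CPM. Esm1 in LEC cells with neither gene was at 1.48 and 2.15 CPM, Tmem252 at 5.90 and 3.71, Apln at 1.20 and 0.120 (13 UMIs and 1 UMI) and Rgcc at 16.7 and 16.5. In the fibroblast gate Esm1 was at 3.34 and 3.51 CPM, Tmem252 at 7.39 and 4.19, Apln at 4.58 and 1.59 and Rgcc at 13.0 and 17.1. In each library the interval of each gene in LEC cells with neither Ly6c1 nor Flt1 overlapped that of the fibroblast gate or lay below it. None of the 5 was thus measured above the fibroblast gate there.

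Cells of the LEC gate with a Ly6c1 or Flt1 UMI carried markers of both endothelia. Their 7 lymphatic markers summed to 2861 CPM in sham and 4525 in SAH, against 3235 and 4431 in cells with neither gene, while the blood endothelial gene Cd34 was at 218 and 176 CPM against 13.6 and 18.2. Scrublet, a tool that predicts droplets with more than 1 cell, called 29.3% of them in sham and 25.4% in SAH as doublets, against 4.22% and 3.54%. Without called doublets, Aplnr in cells with a Ly6c1 or Flt1 UMI was at 86.5 and 17.2 CPM, a ratio of 0.199 [0.166, 0.238]. These levels were still above the 2.93 and 1.27 CPM of cells with neither gene. They came from 436 and 171 UMIs, against 772 and 331 with called doublets left in, so the calls held a large part of the Aplnr UMIs. Whether the remaining cells are mixed droplets was not tested. Among these cells, doublets included, Esm1 was at 52.7 and 36.6 CPM, a ratio of 0.695 [0.610, 0.793], and Rgcc at 327 and 203 CPM, a ratio of 0.620 [0.588, 0.655]. The near-level ratios of these genes over the whole LEC gate thus joined a lower level within such cells to a larger number of them in SAH. Ly6c1 and Flt1 were themselves higher in the SAH LEC gate, at 342 and 542 CPM and at 176 and 257 CPM. The cells so drawn may therefore differ in kind between the libraries, which was not tested. For Apln the ratio over the whole LEC gate was 0.125 [0.0435, 0.297] without called doublets, from 41 and 6 UMIs.

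**Figure D4:**
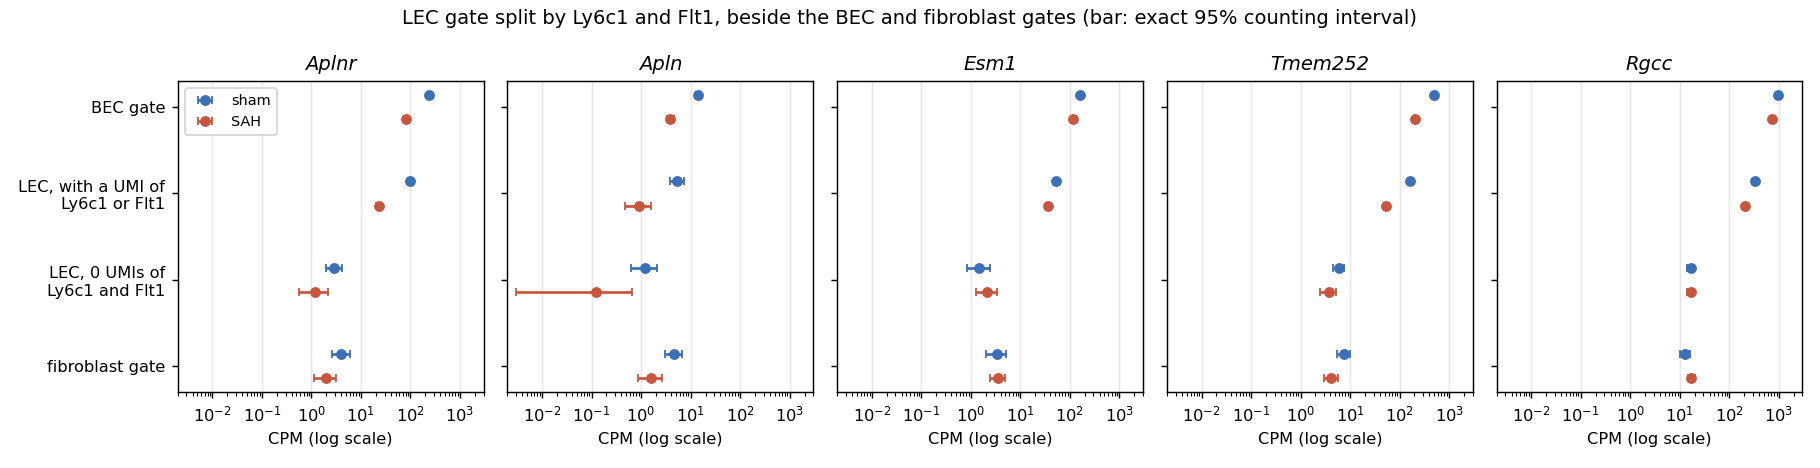
Level of each gene in CPM (log scale) in the BEC gate, in LEC gate cells with and without a UMI of Ly6c1 or Flt1, and in the fibroblast gate, sham in blue and SAH in red, with exact 95% counting intervals. For Aplnr the LEC cells with these UMIs sit at 99.9 and 23.1 CPM and those without at 2.86 and 1.20, beside the fibroblast gate at 4.05 and 1.93.

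Other genes of the apelin pathway showed no common direction in the BEC gate. Of the listed genes 12 had at least 50 UMIs, while Apela, which encodes the other ligand of the receptor, and Pcsk1, which encodes a protease, had fewer. In SAH 1 was at least 1.5-fold higher and 1 lower, where 10.5% and 4.50% of all genes tested were, and the median log2 ratio was 0.05. The lower gene was Furin, a protease that cuts precursor proteins, at 51.7 CPM in sham and 32.7 in SAH (0.633). The higher was Mme, the peptidase neprilysin, at 9.31 and 15.2 CPM (1.63). Among the other genes at either end of the list, the flow-responsive transcription factor Klf2 had a ratio of 0.814 and Mef2c, a transcription factor, of 0.842. Arrb1, a β-arrestin that binds active receptors, had a ratio of 1.37 and Gnai1, a G protein subunit, of 1.29.

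Of 25 listed tip cell genes, all with 50 UMIs, 5 were at least 1.5-fold lower and 2 higher, with a median log2 ratio of -0.24. Over all genes tested 4.50% were lower and 10.5% higher, so the 2 higher genes are no more than that background. All lists were chosen with earlier results of these data known. Nothing is therefore read from the counts of lower or higher genes in this or any other list. Kcne3, a potassium channel subunit, was at 22.5 CPM in sham and 7.18 in SAH (0.319), and the chemokine receptor Cxcr4 at 24.1 and 12.3 CPM (0.509). Mcam, an adhesion molecule, had a ratio of 0.512, Nid2, a basement membrane protein, of 0.552 and Spry4, an inhibitor of growth factor signalling, of 0.558. On the other side stood Pgf, a growth factor of the VEGF family, at 4.82 and 12.1 CPM (2.52), and Flt4, a VEGF receptor also known from lymphatic cells, at 25.3 and 38.6 CPM (1.52). Col4a2, a basement membrane collagen, had a ratio of 1.24.

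Genes of capillary identity included several at higher levels in SAH. Of 15 listed, 4 were at least 1.5-fold higher in SAH and 0 lower (10.5% and 4.50% over all genes tested), with a median log2 ratio of 0.26. These were Cd36, a fatty acid transporter, at 151 CPM in sham and 422 in SAH (2.81), the transcription factor Tcf15 (2.01), the carbonic anhydrase Car4 (1.95) and Gpihbp1, which carries lipoprotein lipase across capillary endothelium (1.64). At the low end were Cav1, a protein of caveolae (0.763), the kinase Sgk1 (0.772) and Emcn, a sialomucin (0.777).

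Most proliferation genes were lower. Of 10 listed, 8 were at least 1.5-fold lower in SAH and 0 higher (4.50% and 10.5% over all genes tested), with a median log2 ratio of -1.23. Ccnb1, a mitotic cyclin, was at 4.57 CPM in sham and 0.459 in SAH from 167 and 17 UMIs, Top2a, a topoisomerase of dividing cells, was at 17.6 and 3.05 CPM (0.174), and Cenpf, a kinetochore protein, at 13.3 and 2.59 CPM (0.196). Pcna, a clamp of DNA replication, had a ratio of 0.658, and the replication genes Tyms and Mcm5, at 0.773 and 0.818, were not past 1.5-fold. Of 12 hypoxia genes, 11 had enough UMIs, 2 were lower and 0 higher (4.50% and 10.5% over all genes tested), with a median of -0.34. Ankrd37 (0.555) and Egln3, an oxygen sensor (0.616 [0.392, 0.957], from only 56 and 35 UMIs), were the lower ones. Ddit4 had a ratio of 0.673, Pfkfb3, an enzyme that promotes glycolysis, of 1.09, Pdk1 of 1.34 and Vegfa, the main angiogenic growth factor, of 1.39. Of 11 immediate early genes, which respond fast to stimuli and to tissue digestion, 0 were past 1.5-fold either way, beside the same shares over all genes. Their median was -0.04, with ratios from Jund at 0.689, Dusp1 at 0.761 and Klf6 at 0.767 to Egr1 at 1.07, Jun at 1.21 and Atf3 at 1.43.

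**Figure D5:**
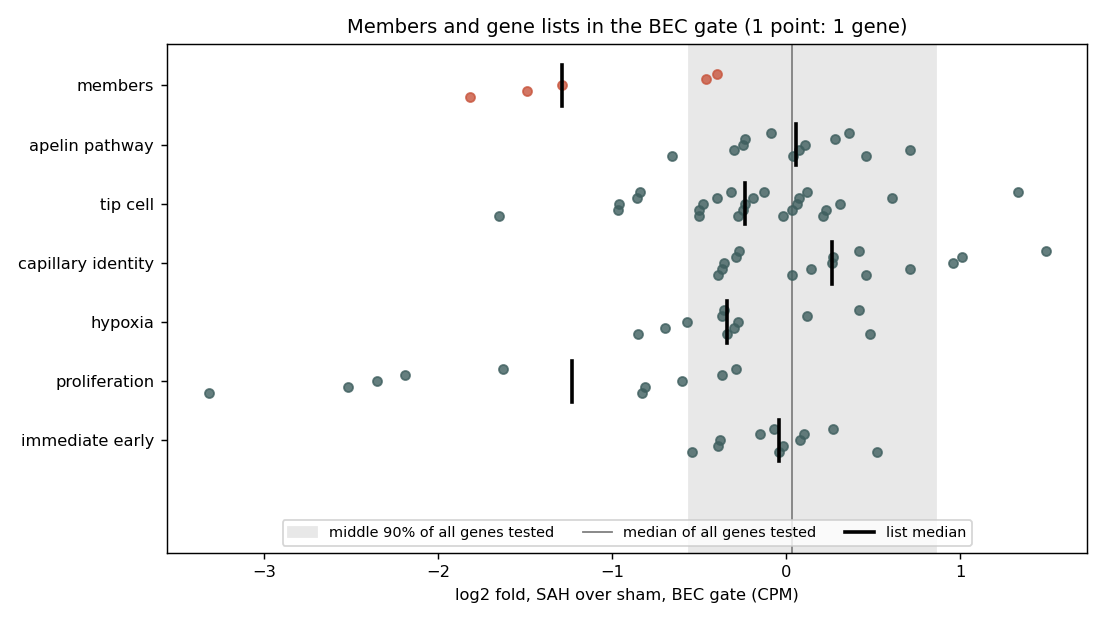
Log2 ratio of SAH to sham CPM in the BEC gate for the 5 genes (red) and for the genes of 6 lists (grey), 1 point a gene, with list medians as black bars, the median of all genes tested as a grey line and their middle 90% shaded. The proliferation list has its median at -1.23 and the capillary identity list at 0.26.

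Genes with the most similar pattern to each of the 5 were ranked by the lower of the Pearson correlations in sham and SAH of log2(CPM + 1) over 8 classes, which were the 7 BEC classes and the LEC gate. The classes share libraries and the ranking covered 7088 genes, so the values are descriptions. For Aplnr these were Scarb1 (r of 0.963 in sham and 0.959 in SAH), Spry1, Sparcl1, Arhgap18 and Itga6. Their BEC ratios were 0.832, 0.551, 1.06, 0.911 and 0.698, so that genes distributed like the receptor over the subsets did not all differ as it did. For Apln the pattern was less closely shared, led by Adamts7 (0.877 and 0.898) and followed by 1110059E24Rik, Sub1, Agap3 and Gnb4, with ratios of 0.776, 0.716, 0.665, 0.977 and 1.08. For Esm1 they were Gm10138 (0.963 and 0.981), Hmbox1, Endod1, Exoc6b and Sft2d1, with ratios of 0.958, 0.820, 1.03, 0.956 and 0.571. For Tmem252 they were Atp8b1 (0.973 and 0.961), Cd34, Gda, Mtus1 and Mmp15, with ratios of 0.845, 1.05, 0.955, 0.896 and 1.15, none of them past 1.5-fold. For Rgcc they were Gm12002 (0.989 and 0.987), Arap2, Sybu, Fam198b and Syne1, with ratios of 1.08, 0.959, 0.673, 0.757 and 1.42.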

How the data were processed

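RNA of mouse mandibular lymph node cells, depleted of CD45-bearing cells and enriched on beads with antibodies to CD31 and podoplanin, was counted in 1 sham and 1 SAH library of 20 pooled mice each. Per the submitters' processing notes, the authors' tools included Cell Ranger 5.0, STAR and Seurat 3.0.2, with the build mm10. The matrix headers give the version 5.0.0. Values deposited by the authors are UMI counts, not normalized, for 27998 features, and per the labels' protocols molecules were tagged at the 5′ end. The annotation release, and whether introns were counted, are not given in the sources used here. The lowest barcode totals were 502 (sham) and 501 (SAH) UMIs.

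Counts of entries with the same symbol were summed (27933 symbols). Barcodes with at least 500 genes and at most 10% mitochondrial UMIs were kept, and doublets were kept, with their removal as an alternative (Scrublet in scanpy 1.11.5). Counts were summed per gate and library. A gene was counted as past the fold at 1.5-fold with at least 50 UMIs over both libraries. Ratios have exact conditional binomial and shares exact Clopper-Pearson 95% intervals. No ratio was given where both libraries had 3 UMIs or fewer. On simulated data, 50 of 50 genes at each of a simulated 2.00-, 4.00-, 0.500- and 0.250-fold in the BEC gate were past 1.5-fold. So were 14 of 11606 genes simulated without a difference, and 95.4% of intervals held the true ratio. The simulated counts were Poisson draws from the summed sham profile, without variation between cells or mice, as the intervals assume. They check the calculation only, and not how the intervals hold where few cells carry most UMIs. The 5 genes and all lists were chosen with earlier results of these data known. The genes named were the 5, the 3 highest and 3 lowest ratios of each list in the BEC gate, and the 5 genes most alike to each of the 5 among genes with at least 20 CPM in a class. Gpihbp1, Nid2, Spry4 and the single marker genes were named after their values were seen. A listed gene of the apelin pathway is not reported here. Python 3.11.15, numpy 2.4.6, scipy 1.17.1, pandas 2.3.3, anndata 0.12.19 and matplotlib 3.10.9 were used. Gene positions are from GENCODE M21.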

Additional observations from a re-analysis of the deposited data

How the results depend on the processing

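The BEC ratios kept their sign under all 13 alternatives for each of the 5 genes, with log2 values from -1.51 to -1.36 for Aplnr (reported -1.49), -2.28 to -1.42 for Apln (-1.82), -0.56 to -0.32 for Esm1 (-0.46), -1.34 to -1.16 for Tmem252 (-1.29) and -0.44 to -0.32 for Rgcc (-0.40). Values outside the counting interval of the reported one were as follows. With at most 5% mitochondrial UMIs Aplnr was at -1.40, Esm1 at -0.56, Tmem252 at -1.21 and Rgcc at -0.44. With gates and counts both taken after thinning to 2000 UMIs, Aplnr was at -1.36, Apln at -1.42, Esm1 at -0.40 and Tmem252 at -1.17. As a mean of CPM over cells Aplnr was at -1.39 and Tmem252 at -1.16. With the same subset mix Apln was at -1.55, Esm1 at -0.35 and Rgcc at -0.32. Apln was at -2.28 without its 10 highest cells. Rgcc was at -0.36 without called doublets and at -0.36 with a BEC gate of at least 2 UMIs. In alternatives chosen after seeing the data, leaving out cells with Mki67 or Top2a gave Aplnr -1.41 and Tmem252 -1.24, and leaving out cells with Smr3a, Bpifa2 or Epcam gave Apln -1.48, Esm1 -0.32, Tmem252 -1.34 and Rgcc -0.34. The cause of these shifts was not tested.

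In the LEC gate and the subsets, 295 of 358 values stayed within the counting interval, 62 moved outside it, 14 had the other sign and 21 moved by over 1.5-fold. A reported direction turned in 1 case, Esm1 in Aqp7 (1.29, from 3 and 11 UMIs), at -0.59 when cells with several markers were let in. The BEC counts of genes at least 1.5-fold higher and lower, 1350 and 579, were 2061 and 1032 with 10 UMIs, and 3679 and 2317 with no filter, where more genes of few UMIs enter. No paired analysis was possible because each group is 1 library and the labels give no shared replicate number. With 1 library a group, leaving out a replicate was not possible, and intervals cover counting error only.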

Other observations

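Cells of the BEC gate were also split by genes outside the lists of the report, a split chosen after the values were seen, with every cell thinned to 2000 UMIs. A UMI of any of 6 interferon-stimulated genes, Irf7, Isg15, Ifit1, Ifit3, Oasl2 or Rtp4, was found in 57.5% of sham and 80.5% of SAH cells. Aplnr had a UMI in 30.4% [28.9, 32.0] of sham cells with such a UMI and 28.3% [26.6, 30.2] of those without, and in 15.1% [14.1, 16.2] and 12.3% [10.5, 14.4] of SAH cells. Tmem252 had one in 44.5% [42.8, 46.2] and 43.9% [42.0, 45.9] of sham cells, and in 26.2% [25.0, 27.5] and 22.9% [20.5, 25.4] of SAH cells. For Aplnr and Tmem252 the intervals of cells with and without such a UMI overlapped within each library, and both kinds of cell were lower in SAH. Such an overlap does not show that the shares were equal. Rgcc had a UMI in 62.8% [61.1, 64.4] of sham cells with interferon-stimulated RNA and 54.8% [52.8, 56.7] of those without, which were apart. In SAH its shares were 53.3% [51.9, 54.7] and 50.2% [47.2, 53.1], which overlap. For Esm1 the shares were 17.7% and 17.4% in sham and 14.2% and 14.9% in SAH, and for Apln 1.45% and 1.55%, and 0.594% and 0.437%.

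Dividing cells were few. A UMI of Mki67 or Top2a was found in 102 sham cells (1.77%) and 37 SAH cells (0.632%). Aplnr had a UMI in 48.0% [38.0, 58.2] of these sham cells, against 29.2% [28.0, 30.4] of the others, and Tmem252 in 62.7% [52.6, 72.1] against 43.9% [42.7, 45.3]. In SAH Aplnr had one in 2 of the 37 cells, 5.41% [0.661, 18.2], against 14.6% [13.7, 15.5], and Tmem252 in 27.0% [13.8, 44.1] against 25.6% [24.5, 26.7]. Dividing cells of the sham library held the receptor gene more often than other cells, a difference not seen in SAH, where 37 cells limit the precision. Whether the libraries differ in this was not tested.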
